A study of Mus musculus with 15 samples.

Results

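The genes described here are 60 genes that act in mitosis, from the kinases that start it to the proteins that separate the chromosomes and divide the cell, sorted by role into 8 groups. They were looked up by symbol in the 4 tables of differentially expressed genes that the authors deposited. Of the 60 genes, 57 have a row in at least 1 table, among 4567 listed genes of which 4423 have a symbol. Kif20b, Kif23 and Pttg1 have no row and were not analysed here. Each table lists only genes that changed by more than 2 on the log2 scale at an adjusted p under 0.05 in its own comparison. The table of CD8 Flica-negative against control cells lists 55 of the 57 genes, that of CD4 Flica-negative against control cells 48 and that of CD8 Flica-positive against control cells 56. The table that sets Flica-positive against Flica-negative cells lists 0 of them. The 3 contrasts with control cells therefore decided which genes could be measured, and their values are given as a description. Cenpk entered only through the Flica-positive table and Racgap1 only through the CD4 table.

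RNA was sequenced from 15 libraries of sorted mouse T cells, 3 in each of 5 groups. CD4 control and CD8 control cells came from spleens of untreated C57Bl6 mice on day 0, and were sorted as Flica-negative. The other groups were sorted on day 7 from spleens of lethally irradiated allogeneic Balb/C recipients that had received C57Bl6 T cells and bone marrow, a model of acute graft-versus-host disease (aGvHD). The study treats the sorted cells as donor T cells. These groups are CD4 Flica-negative, CD8 Flica-negative and CD8 Flica-positive cells, Flica being a dye that labels cells with active caspase-1. All 3 day 7 groups thus differ from the controls in transplantation, irradiated host and time together, which cannot be told apart, and no Flica-positive CD4 cells and no recipients of syngeneic cells were used here. A sort of transplanted cells pooled several recipients according to the study, while a control library may come from a single mouse. The p-values measure the spread between these libraries. Counts on the listed genes totalled 2143579 to 3184674 in 12 libraries and 7310375 to 11046043 in the 3 Flica-positive ones, with the authors' size factors between 0.836 and 1.25, and since the tables hold part of the genes these totals are not library depths. Cd8a, the only one of 17 T cell markers with a row, summed to between 9348 and 21642 normalized counts in the CD8 groups and between 4.41 and 117 in the CD4 groups.

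A dividing T cell must copy its chromosomes, condense them, attach each pair of sister chromatids to spindle fibres from opposite poles, and split. Cyclin-bound Cdk1 and the Plk and Aurora kinases start these steps, the kinetochore ties the centromere to microtubules, the spindle checkpoint delays separation until every chromosome is attached, and the anaphase-promoting complex then marks securin and the cyclins for destruction. Transcripts of most of these genes are low in resting lymphocytes and build up in late cell cycle phases, which is why Mki67 and Top2a serve as markers of dividing cells. T cells that meet foreign major histocompatibility antigens in an allogeneic host are known to divide many times in the first week.

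Promoters of genes of late cell cycle phases are known for CCAAT boxes, bound by NF-Y, and for the cell cycle genes homology region (CHR), bound by MuvB complexes that hold such genes down in resting cells. RefSeq promoter sequences (GRCm38.p6, 250 bases before to 50 after each start) were on hand for 49 of the 57 genes, in 54 entries. CCAAT, searched on both strands as CCAAT or ATTGG, was found in 43 of the 54 entries (79.6%) against 37.4% of all 32851 promoters. The CHR, searched on both strands as TTTGAA or TTCAAA, was found in 34 (63.0%) against 17.9% of all promoters. Both together were found in 29 entries (53.7%) against 6.95%, and at least 2 CCAAT boxes in 26 (48.1%) against 11.7%. A looser CHR that also took TTTAAA was found in 68.5% against 27.6%, and a CHR within 100 bases before to 50 after the start in 59.3% against 8.01%. The median log2 fold change from control to CD8 Flica-negative cells was 3.66 for the 32 genes with a CHR and 3.94 for the 17 without, and in CD4 cells it was 3.15 and 3.12. A match is a description of letters and no evidence of binding. The 150 bases before the start are shown for 5 genes that rose in all day 7 groups, and for Racgap1 and Kifc1, the genes whose levels differed between resting CD4 and CD8 cells in every setting run. Capitals mark the CCAAT and CHR matches.
Cdk1 (chr10:69352913-69353062, minus strand): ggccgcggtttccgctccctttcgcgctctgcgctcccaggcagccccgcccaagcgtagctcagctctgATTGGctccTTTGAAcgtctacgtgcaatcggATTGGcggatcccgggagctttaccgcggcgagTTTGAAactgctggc
Top2a (chr11:99024190-99024339, minus strand): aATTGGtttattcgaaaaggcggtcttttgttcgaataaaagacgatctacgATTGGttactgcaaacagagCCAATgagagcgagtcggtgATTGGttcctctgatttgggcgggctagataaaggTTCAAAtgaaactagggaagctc
Mki67 (chr7:135716380-135716529, minus strand): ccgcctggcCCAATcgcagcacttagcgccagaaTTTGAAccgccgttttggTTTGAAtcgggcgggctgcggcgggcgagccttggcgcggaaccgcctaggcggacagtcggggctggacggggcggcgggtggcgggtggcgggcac
Cdc20 (chr4:118437344-118437493, minus strand): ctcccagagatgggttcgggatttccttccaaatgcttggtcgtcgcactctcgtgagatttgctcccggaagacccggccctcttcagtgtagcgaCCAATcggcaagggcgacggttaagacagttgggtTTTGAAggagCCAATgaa
Kif11 (chr19:37376232-37376381, plus strand): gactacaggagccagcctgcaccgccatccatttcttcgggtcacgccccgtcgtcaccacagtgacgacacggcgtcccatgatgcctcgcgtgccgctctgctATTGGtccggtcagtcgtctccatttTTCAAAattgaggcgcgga
Racgap1 (chr15:99651657-99651806, minus strand): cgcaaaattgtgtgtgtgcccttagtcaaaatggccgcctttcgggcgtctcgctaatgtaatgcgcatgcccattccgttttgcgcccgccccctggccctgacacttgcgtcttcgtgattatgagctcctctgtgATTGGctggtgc
Kifc1 (chr17:33890634-33890783, minus strand): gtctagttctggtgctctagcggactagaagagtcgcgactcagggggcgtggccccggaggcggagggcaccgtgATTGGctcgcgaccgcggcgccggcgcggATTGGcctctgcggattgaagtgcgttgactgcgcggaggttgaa
Top2a, which encodes topoisomerase II alpha, has 4 CCAAT boxes and 1 CHR in the stretch shown, and Cdk1 has 2 of each. The stretches of Racgap1 and Kifc1 hold 1 and 2 CCAAT boxes and no CHR, and for both genes the only CHR of the window lies just after the start, outside the stretch shown.

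On the authors' scale, day 7 cells of all 3 groups had far more mitotic transcript than resting cells. The normalized count, a read count divided by the authors' size factor for its library, was summed over the 57 genes. The sum was 6190, 5519.7 and 6077 in the CD4 control libraries and 9184, 7733 and 8425 in the CD8 controls. It was 34706, 34515 and 48204 in CD4 Flica-negative, 53338, 80332 and 100284 in CD8 Flica-negative and 112010.0, 101770 and 118062 in CD8 Flica-positive libraries. Every day 7 library was above every control library in the sum. Markers of other cells moved as well. B cell markers, 10 of 11 with a row, summed to between 7213 and 10457 normalized counts in control and between 359.9 and 936 in day 7 libraries. All 10 were called lower in each day 7 group. Listed genes called lower were 1328 of 4444 in CD8 Flica-negative, 1217 of 4358 in CD4 Flica-negative and 1100 of 4538 in CD8 Flica-positive cells. Neutrophil markers summed to between 63.6 and 149 in control and between 2727 and 18554 in Flica-negative libraries. Of these, 14 of 15 were called higher in CD8 and 13 of 15 in CD4 cells, beside 38.8% and 33% of listed genes. These contrasts took part in listing the markers too. The part of the markers in the members' changes was not tested. With the authors' size factors the group means of 56 genes rose in the order CD4 Flica-negative, CD8 Flica-negative, CD8 Flica-positive, and Racgap1 alone had its highest mean in CD8 Flica-negative cells. The step from Flica-negative to Flica-positive cells turned with the scaling, the members' median log2 difference of 0.64 becoming 0.11, 0.10 or -0.67, so statements below that Flica-positive libraries lay highest hold on the authors' scale only. In the control groups 41 of the 57 genes had a mean under 100 normalized counts, so that folds against control rest on few reads there. Among CD8 Flica-negative libraries replicate 1 was the lowest for all 57 genes and replicate 3 the highest for 56. Replicate 3 of the CD4 Flica-negative libraries was the highest for 51 genes.

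**Figure D1:**
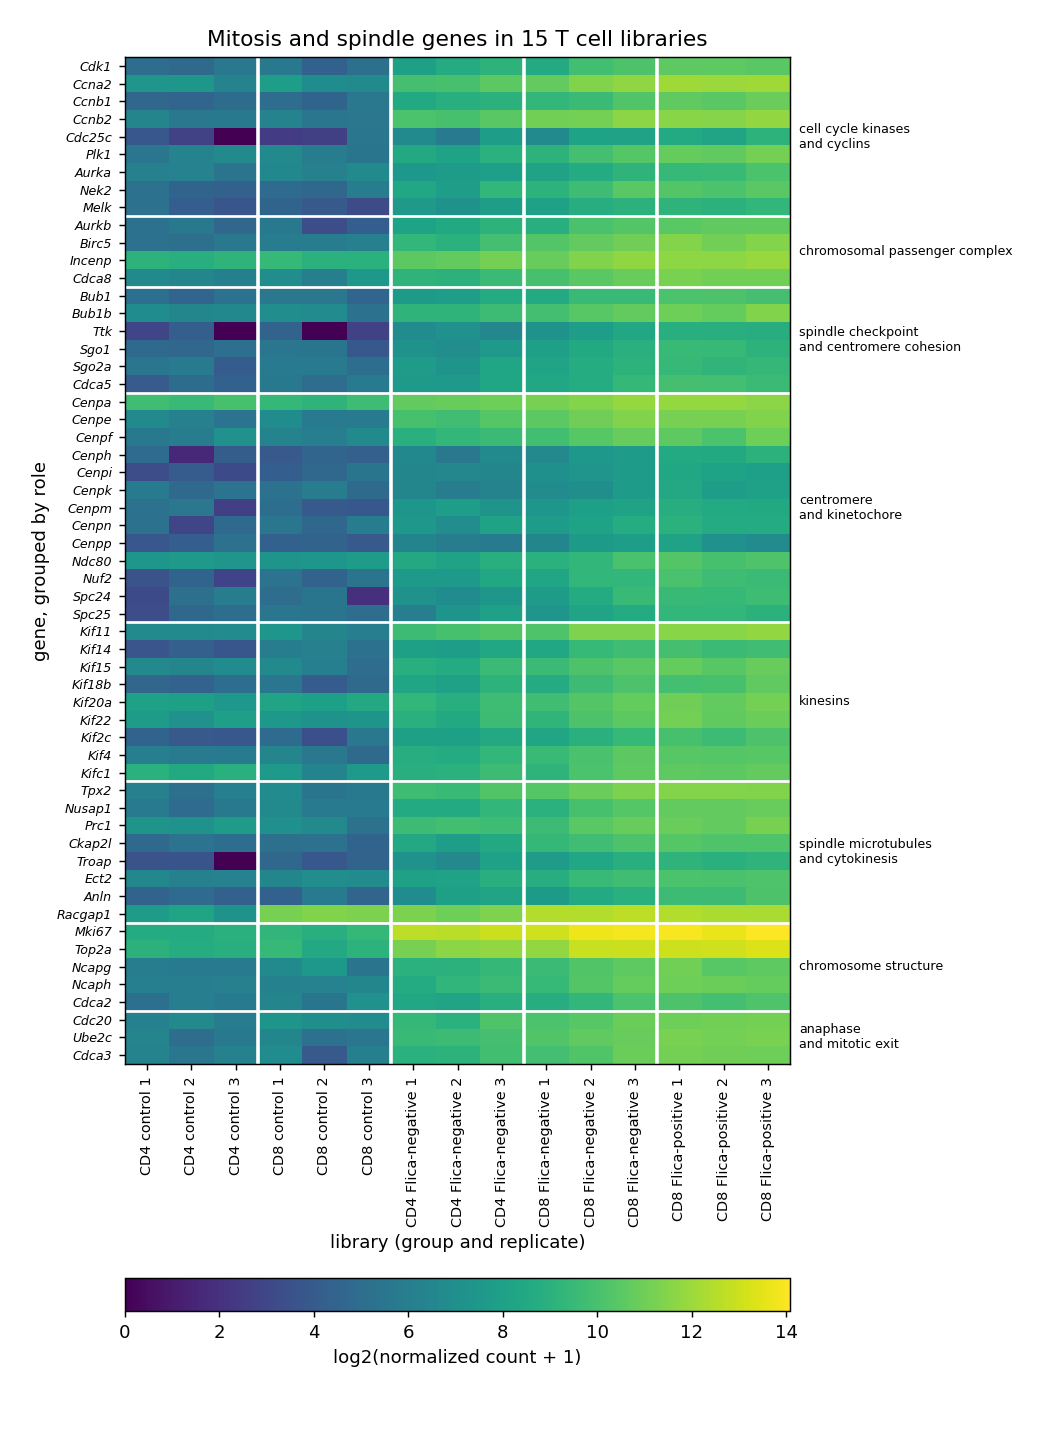
Levels of the 57 mitosis and spindle genes (rows, grouped by role) in the 15 libraries (columns), as log2(normalized count + 1) on the colour scale. The 6 control libraries are dark for most genes, and Racgap1 stands out as high in the 3 CD8 control libraries.

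**Figure D2:**
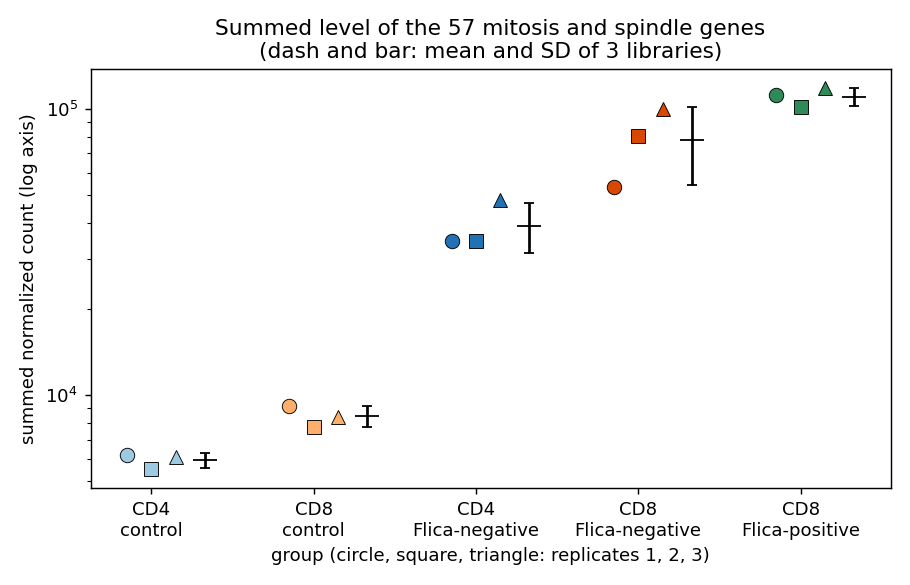
Summed normalized count of the 57 genes per library on a log axis, with circles, squares and triangles for replicates 1, 2 and 3 and a dash with bar for the mean and SD of 3 libraries. The control libraries lie between 5519.7 and 9184, the CD4 Flica-negative ones between 34515 and 48204, and the CD8 libraries of day 7 between 53338 and 118062.

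Against CD8 control cells, CD8 Flica-negative cells had a median log2 fold change of 3.75 over the 57 genes, a 13.4-fold rise, from 1.23 for Racgap1 to 5.49 for Ccnb2. The edgeR quasi-likelihood test called 57 of 57 higher, where 38.8% of the 4444 listed genes tested were called higher. These calls repeat the listing, which took 55 of the 57 by the same contrast, and nothing is read from them. In CD4 Flica-negative cells the median was 3.11, an 8.62-fold rise, and 55 of 57 were called higher against a background of 33%. The 2 genes not called in CD4 cells were Cenpk (log2 0.88 ± 0.48, adjusted p = 0.13) and Kifc1 (log2 0.37 ± 0.26, adjusted p = 0.23). In CD8 Flica-positive cells the median was 4.55, a 23.5-fold rise, and 57 of 57 were called higher against a background of 47.2%. The libraries of the groups did not overlap for 57, 56 and 57 genes in CD8 Flica-negative, CD4 Flica-negative and CD8 Flica-positive cells, where 41.8%, 36.6% and 48.5% of the listed genes were higher in every library. All listed genes tested had medians of 0.61, 0.09 and 2.04 in the same comparisons. The Flica-positive values depended on the scaling. The median was 2.87 with TMM and 2.69 with median-of-ratios factors from the listed genes, with 54 and 52 members called higher, and Racgap1 turned to -0.61 and -0.84. CD8 Flica-negative and Flica-positive cells were compared with the same 3 CD8 control libraries. In a bulk library, more dividing cells and more transcript per dividing cell cannot be told apart.

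The 9 kinases and cyclins of mitotic entry rose by medians of 4.50 in CD8 Flica-negative, 3.48 in CD4 Flica-negative and 5.06 in CD8 Flica-positive cells on the log2 scale. Cdk1, the kinase that drives cells into mitosis, had 31.3, 28.04 and 48.03 normalized counts in the CD4 control libraries, 51.1, 19.7 and 35.6 in the CD8 controls, 258, 398 and 545 in CD4 Flica-negative, 385, 892 and 1145 in CD8 Flica-negative and 1538, 1515 and 1427 in CD8 Flica-positive cells. The control libraries of the lineages overlapped, and the lowest day 7 library was above the highest control library. Its log2 fold changes against control were 4.50 ± 0.50 in CD8 Flica-negative, 3.48 ± 0.38 in CD4 Flica-negative and 5.39 ± 0.39 in CD8 Flica-positive cells. Normalized counts of Ccnb1, the cyclin B1 partner of Cdk1, were 24.6, 23.2 and 31.1 in resting CD4 and 31.7, 22.4 and 48.1 in resting CD8 cells, and on day 7 371, 461 and 528 in CD4 Flica-negative, 646, 774 and 1207 in CD8 Flica-negative and 1604, 1444 and 1886 in CD8 Flica-positive libraries. It rose 25.7-fold in CD8 Flica-negative, 17.1-fold in CD4 Flica-negative and 48.2-fold in CD8 Flica-positive cells. In CD8 cells Ccnb2, cyclin B2, went from 78.4, 45.7 and 46.2 normalized counts in control to 2213, 2271 and 3189.6 in Flica-negative and 3112, 2967 and 3513 in Flica-positive libraries, and in CD4 cells from 83.7, 49.3 and 51.6 in control to 1101, 1011 and 1436 in Flica-negative libraries. Ccnb2 had the largest rise of all members in CD8 Flica-negative cells (44.9-fold, log2 5.49 ± 0.31, adjusted p = 3.6e-07). Per kilobase of exon it was also the most abundant member in each day 7 group, at 773 ± 146, 1671 ± 358 and 2088 ± 185 normalized counts per kilobase in CD4 Flica-negative, CD8 Flica-negative and CD8 Flica-positive cells (SD, n = 3). Ccnb1 and Ccnb2 each have a named pseudogene, to which the authors' counting could have given some of their reads. For Ccna2, cyclin A2, active from DNA replication to early mitosis, the libraries held 163, 176 and 78.3 (CD4 control), 234, 116 and 107 (CD8 control), 962, 1002 and 1513 (CD4 Flica-negative), 1659.8, 2769 and 3441 (CD8 Flica-negative) and 4381, 4015 and 4279 (CD8 Flica-positive) normalized counts. On the authors' scale the Flica-positive libraries lay above all others, while with total-count scaling the log2 difference of Ccna2 from Flica-negative cells was -0.61. Plk1, a kinase of entry, spindle assembly and cytokinesis, had 45.8, 76.4 and 103 normalized counts in the CD4 control libraries, 107, 58.2 and 43.3 in the CD8 controls, 373, 291 and 517 in CD4 Flica-negative, 556, 944 and 1299.7 in CD8 Flica-negative and 1754, 1576 and 2298 in CD8 Flica-positive cells. The lowest CD8 Flica-negative library was close to the highest CD4 one, and the Flica-positive libraries lay above all others. Normalized counts of Aurka, the Aurora kinase of the spindle poles, were 69.2, 73.5 and 41.8 in resting CD4 and 95.1, 68.1 and 108 in resting CD8 cells, and on day 7 179.9, 209 and 243 in CD4 Flica-negative, 274, 412 and 582 in CD8 Flica-negative and 701, 739 and 1105 in CD8 Flica-positive libraries. Aurka had the smallest log2 rise of the role, 2.23 ± 0.37 in CD8 Flica-negative, 1.78 ± 0.36 in CD4 Flica-negative and 3.23 ± 0.35 in CD8 Flica-positive cells. Cdc25c, the phosphatase that activates Cdk1, had few reads in resting cells, with 13.4, 5.80 and 0 normalized counts in CD4 and 4.41, 5.37 and 45.2 in CD8 controls, and its log2 rise in CD4 cells was 4.39 ± 0.93. Nek2, a kinase of centrosome separation, rose by 4.65 ± 0.47 in CD8 Flica-negative, 3.94 ± 0.45 in CD4 Flica-negative and 5.06 ± 0.41 in CD8 Flica-positive cells on the log2 scale, and Melk, another kinase of dividing cells, by 4.75 ± 0.47 in CD8 Flica-negative, 3.12 ± 0.48 in CD4 Flica-negative and 5.25 ± 0.47 in CD8 Flica-positive cells.

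The chromosomal passenger complex corrects faulty attachments and steers cytokinesis. All 4 subunits were called higher in every day 7 group, the kinase Aurkb and the targeting subunit Birc5 with larger folds than the scaffold Incenp. In CD8 cells Aurkb, Aurora B, went from 51.1, 8.95 and 17.3 normalized counts in control to 453, 1071 and 1251 in Flica-negative and 1454, 1587 and 1624 in Flica-positive libraries, and in CD4 cells from 39.1, 51.3 and 24.01 in control to 292, 377 and 541 in Flica-negative libraries. For Birc5, survivin, the libraries held 39.1, 35.8 and 48.9 (CD4 control), 59.9, 60.9 and 70.2 (CD8 control), 640.1, 512 and 946 (CD4 Flica-negative), 1271, 1675 and 2099.7 (CD8 Flica-negative) and 2839.5, 2167 and 2813 (CD8 Flica-positive) normalized counts. The CD8 Flica-positive libraries were the highest for both genes. Incenp had 553, 460.3 and 575 normalized counts in the CD4 control libraries, 685, 512 and 508 in the CD8 controls, 1461, 1643 and 2232 in CD4 Flica-negative, 1792, 2696 and 3453 in CD8 Flica-negative and 3280.3, 3347 and 3893 in CD8 Flica-positive cells. Aurkb and Birc5 were at 25.8 and 63.7 normalized counts on average in CD8 controls and rose 35.6-fold and 26.4-fold in CD8 Flica-negative cells. Incenp was at 568 in CD8 controls and rose 4.66-fold there, 3.36-fold in CD4 Flica-negative and 6.17-fold in CD8 Flica-positive cells. Cdca8, borealin, the remaining subunit, rose 11.6-fold, 7.38-fold and 18.6-fold in the same order.

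The 6 genes of the spindle checkpoint and of centromere cohesion were called higher in every day 7 group, with medians of 3.66, 2.92 and 4.42 in CD8 Flica-negative, CD4 Flica-negative and CD8 Flica-positive cells. Normalized counts of Bub1b, the checkpoint protein BubR1, were 114, 87.03 and 95.2 in resting CD4 and 121, 111 and 39.4 in resting CD8 cells, and on day 7 577, 571 and 806 in CD4 Flica-negative, 928, 1374 and 1696 in CD8 Flica-negative and 2028, 1722 and 2684 in CD8 Flica-positive libraries. Its log2 rise was 3.88 ± 0.43 in CD8 Flica-negative, 2.72 ± 0.26 in CD4 Flica-negative and 4.56 ± 0.45 in CD8 Flica-positive cells. Its kinase partner Bub1 rose by 3.97 ± 0.41 in CD8 Flica-negative, 3.11 ± 0.40 in CD4 Flica-negative and 4.76 ± 0.38 in CD8 Flica-positive cells. In CD8 cells Ttk, the checkpoint kinase Mps1, went from 21.1, 0 and 5.77 normalized counts in control to 146, 229 and 349.5 in Flica-negative and 471, 457 and 436 in Flica-positive libraries, and in CD4 cells from 6.70, 18.4 and 0 in control to 109, 136 and 91.3 in Flica-negative libraries. It had no read in 1 library of each control group, and its log2 rise in Flica-positive cells, 5.64 ± 1.01, was among the 3 largest. The cohesion protectors Sgo1 and Sgo2a and the cohesin stabiliser Cdca5 (sororin) rose between 2.42 and 4.28 on the log2 scale. For Cdca5 the rise was 3.39 ± 0.38 in CD8 and 3.37 ± 0.42 in CD4 cells.

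The 13 centromere and kinetochore genes had the smallest median rise of the 8 roles in all 3 comparisons, 3.12 in CD8 Flica-negative, 2.60 in CD4 Flica-negative and 3.92 in CD8 Flica-positive cells on the log2 scale. For Cenpa, the histone H3 variant that marks the centromere, the libraries held 864, 733 and 1022 (CD4 control), 665, 582 and 834 (CD8 control), 1649.5, 1796 and 2008 (CD4 Flica-negative), 2366, 2879 and 3663 (CD8 Flica-negative) and 3694, 3755 and 3241 (CD8 Flica-positive) normalized counts. It was measurable in every resting library, and its rise of 2.08-fold in CD4 Flica-negative cells was among the 3 smallest. Per kilobase of exon it was the most abundant member in CD4 controls, at 149 ± 24.7 normalized counts (SD, n = 3). Ndc80, which binds microtubules directly, had 166, 191 and 162 normalized counts in the CD4 control libraries, 154, 171 and 209.6 in the CD8 controls, 355, 279 and 478 in CD4 Flica-negative, 510.3, 649 and 1042 in CD8 Flica-negative and 1269, 1018 and 1189 in CD8 Flica-positive cells. Ndc80 rose 4.12-fold in CD8 and 2.14-fold in CD4 Flica-negative cells. Its partner Nuf2 went from 34.5 ± 11.3 to 529.7 ± 195 normalized counts in CD8 cells (SD, n = 3), a 15.3-fold rise, and rose 18.3-fold in CD4 Flica-negative cells. Spc24 and Spc25 form the other end of the Ndc80 complex. Normalized counts of Spc24 were 7.82, 35.8 and 61.4 in resting CD4 and 31.7, 43.9 and 2.89 in resting CD8 cells, and on day 7 147, 116 and 171 in CD4 Flica-negative, 223, 402 and 706 in CD8 Flica-negative and 721, 689 and 825 in CD8 Flica-positive libraries. In CD8 cells Spc25 went from 45.8, 42.1 and 31.7 normalized counts in control to 163, 300.5 and 413 in Flica-negative and 646, 632 and 538 in Flica-positive libraries, and in CD4 cells from 8.93, 25.1 and 32.9 in control to 63.5, 153 and 267 in Flica-negative libraries. Spc24 varied widely among the control libraries. The Flica-positive libraries lay above all others for Spc25 and overlapped with 1 Flica-negative library for Spc24. For Cenpf, a large protein of the outer kinetochore, the libraries held 50.2, 58.99 and 141 (CD4 control), 77.5, 64.5 and 102 (CD8 control), 493, 629 and 782 (CD4 Flica-negative), 916, 1352 and 1776 (CD8 Flica-negative) and 1545, 1102 and 2033 (CD8 Flica-positive) normalized counts. Cenpf overlapped between CD8 Flica-negative and Flica-positive libraries. The kinetochore motor Cenpe rose by log2 4.80 ± 0.38 in CD8 Flica-negative cells, against 4.05 ± 0.33 for Cenpf. Cenpk, Cenph, Cenpi, Cenpm, Cenpn and Cenpp belong to the inner kinetochore, and their log2 changes in CD8 Flica-negative cells ranged from 1.82 for Cenpk to 3.50 for Cenpm. Cenpk had 55.8, 27.1 and 40.9 normalized counts in the CD4 control libraries, 37.9, 60.9 and 27.9 in the CD8 controls, 87.3, 61.4 and 78.5 in CD4 Flica-negative, 112, 126 and 209 in CD8 Flica-negative and 355, 237 and 265 in CD8 Flica-positive cells. Its CD4 Flica-negative libraries were only just above the CD4 controls. All 13 genes were called higher in both CD8 comparisons and 12 of 13 in CD4 cells.

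The 9 kinesins with a row were called higher in both CD8 groups, and 8 of 9 in CD4 Flica-negative cells. Normalized counts of Kif11, the motor that pushes the spindle poles apart, were 105, 104 and 111 in resting CD4 and 167, 83.3 and 64.4 in resting CD8 cells, and on day 7 792, 1010.0 and 1221 in CD4 Flica-negative, 1191, 2587 and 2675 in CD8 Flica-negative and 3039, 3119.6 and 3576 in CD8 Flica-positive libraries. Kif11 rose 20.4-fold, 9.42-fold and 30.8-fold in CD8 Flica-negative, CD4 Flica-negative and CD8 Flica-positive cells. In CD8 cells Kif20a, needed for cytokinesis, went from 293, 247 and 356 normalized counts in control to 865, 1269.9 and 1709 in Flica-negative and 2127, 1678 and 2234 in Flica-positive libraries, and in CD4 cells from 262, 256 and 181 in control to 643, 477 and 834 in Flica-negative libraries. It rose 2.80-fold in CD4 and 4.29-fold in CD8 Flica-negative cells from a resting level well above 0 in every library. Exon bases of Kif20a overlap those of Cdc23 on the opposite strand, as is the case with an opposite-strand gene for 18 of the 57 members, and whether the counting used strand is not given in the sources used here. Kif18b, a depolymerase of microtubule ends, rose most among kinesins in CD8 cells, by log2 4.71 ± 0.51 (Flica-negative) and 5.31 ± 0.47 (Flica-positive). Kif14, a cytokinesis motor, rose most in CD4 cells, by 4.22 ± 0.39. Kif22 and the chromokinesin Kif4 each have a named pseudogene.

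Among the 8 genes of spindle microtubules and cytokinesis, Racgap1 had the smallest change in both CD8 comparisons and Ect2 the smallest in CD4 Flica-negative cells. For Tpx2, which activates Aurora A on the spindle, the libraries held 69.2, 35.8 and 66.7 (CD4 control), 108, 43.9 and 50.01 (CD8 control), 841, 721 and 1208 (CD4 Flica-negative), 1316, 1877 and 2488 (CD8 Flica-negative) and 2875, 2814 and 2704 (CD8 Flica-positive) normalized counts. Tpx2 rose 28.00-fold in CD8 and 16.1-fold in CD4 Flica-negative cells. Troap had 11.2, 11.6 and 0 normalized counts in the CD4 control libraries, 24.7, 13.4 and 21.2 in the CD8 controls, 149.9, 99.3 and 265 in CD4 Flica-negative, 223, 341 and 463 in CD8 Flica-negative and 566, 493 and 572 in CD8 Flica-positive cells. Troap had the largest log2 rise of all members in CD4 Flica-negative cells, 4.51 ± 0.81, from at most 11.6 normalized counts in a CD4 control library. Normalized counts of Anln, the contractile ring scaffold anillin, were 21.2, 29.01 and 19.6 in resting CD4 and 19.4, 53.7 and 23.1 in resting CD8 cells, and on day 7 116, 259 and 304 in CD4 Flica-negative, 202, 388 and 494 in CD8 Flica-negative and 801, 808 and 1119 in CD8 Flica-positive libraries. The Flica-positive libraries of Anln lay above the CD8 Flica-negative ones. Prc1, which bundles microtubules between the separating chromosomes, rose by log2 3.87 ± 0.47 in CD8 and 2.31 ± 0.22 in CD4 Flica-negative cells, and Ect2, which switches on RhoA at the division plane, by 2.67 ± 0.33 and 2.06 ± 0.33. The spindle proteins Nusap1 and Ckap2l rose by 3.72 ± 0.43 and 4.80 ± 0.35 in CD8 Flica-negative cells.

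The 5 chromosome structure genes took 29.7% ± 1.86 of the members' summed counts in CD4 Flica-negative, 28.0% ± 1.83 in CD8 Flica-negative and 26.4% ± 0.784 in CD8 Flica-positive cells (SD, n = 3), against 18.3% ± 0.384 and 16.4% ± 1.45 in CD4 and CD8 controls. In CD8 cells Mki67, the Ki-67 protein that coats mitotic chromosomes, went from 618, 473 and 654 normalized counts in control to 8699, 13395 and 15258 in Flica-negative and 15715, 13073 and 17394 in Flica-positive libraries, and in CD4 cells from 409.8, 413 and 493 in control to 6632, 6251 and 7997 in Flica-negative libraries. Mki67 rose 21.4-fold in CD8 Flica-negative, 15.9-fold in CD4 Flica-negative and 26.5-fold in CD8 Flica-positive cells, and the groups did not overlap with the controls. For Top2a, which untangles sister chromatids, the libraries held 532, 416 and 459 (CD4 control), 683, 364 and 540.5 (CD8 control), 2391, 3199 and 3531 (CD4 Flica-negative), 3506, 7578 and 7875 (CD8 Flica-negative) and 8391, 8703 and 10268 (CD8 Flica-positive) normalized counts. Its log2 changes were 3.58 ± 0.34 in CD8 Flica-negative, 2.70 ± 0.21 in CD4 Flica-negative and 4.11 ± 0.28 in CD8 Flica-positive cells. Ncapg and Ncaph, subunits of condensin, rose by 3.41 ± 0.49 and 3.98 ± 0.37 in CD8 Flica-negative cells and Cdca2 by 3.02 ± 0.48. The 9 kinases and cyclins rose from 7.69% ± 1.17 and 5.97% ± 1.13 of the sum in CD4 and CD8 controls to 11.5% ± 0.661, 12.5% ± 0.555 and 14.0% ± 0.416 in CD4 Flica-negative, CD8 Flica-negative and CD8 Flica-positive cells. These shares are of counts not set per length, over members that the tables selected.

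The 3 genes of anaphase and mitotic exit with a row rose in every day 7 group. Cdc20, which switches on the anaphase-promoting complex, had 69.2, 98.6 and 59.6 normalized counts in the CD4 control libraries, 153, 129.8 and 112 in the CD8 controls, 667, 513 and 1159.7 in CD4 Flica-negative, 1079, 1358 and 1929 in CD8 Flica-negative and 1994, 2175 and 2265 in CD8 Flica-positive cells. Cdc20 shares exon bases with Elovl1 on the opposite strand. Normalized counts of Ube2c, the ubiquitin-conjugating enzyme of that complex, were 82.6, 31.9 and 51.6 in resting CD4 and 88.98, 39.4 and 45.2 in resting CD8 cells, and on day 7 748, 815 and 972 in CD4 Flica-negative, 1230.5, 1582 and 1793 in CD8 Flica-negative and 2469, 2279 and 2418 in CD8 Flica-positive libraries. Ube2c rose 26.4-fold in CD8 and 15.3-fold in CD4 Flica-negative cells. Cdca3, which helps cells enter mitosis, rose 21.2-fold and 10.1-fold.

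CD4 and CD8 Flica-negative cells of day 7 were compared directly, a contrast that did not decide the listing although its libraries took part in it. CD4 cells had less of every member, and less of 2276 of the 4241 listed genes. The members' median log2 difference was -1.03, so that CD8 cells had 2.05 times as much. Of the 57 genes 42 were called lower in CD4 cells and 0 higher, against backgrounds of 12.6% and 10.1% of 4241 listed genes, whose median was -0.12. At an unadjusted p below 0.05, 52 of the 57 passed, all lower, beside 1498 of the 4241 listed genes in either direction. DESeq2 called 48 members lower and 0 higher, beside 633 and 511 listed genes. For 29 of the 57 the 3 CD4 libraries all lay below the 3 CD8 libraries, against 21% of listed genes. Of the 47 genes that both Flica-negative tables list, and so were not admitted by either lineage alone, 36 were called lower.

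Spc24 had the largest difference, log2 -1.61 ± 0.37, adjusted p = 0.0057, with 147, 116 and 171 normalized counts in CD4 and 223, 402 and 706 in CD8 Flica-negative libraries. Ckap2l had 368, 238 and 370.0 in CD4 and 679, 865 and 1134 in CD8 libraries (log2 -1.46 ± 0.25, adjusted p = 0.00090). For both genes the groups did not overlap. Cenpp was the third by size (log2 -1.38 ± 0.39, adjusted p = 0.020), with 80.2, 61.4 and 56.9 against 88.4, 202 and 228. It is listed for CD8 and not for CD4 Flica-negative cells, so it was admitted through the lineage where it is higher. Mki67 was 1.79-fold lower in CD4 cells (log2 -0.84 ± 0.18, adjusted p = 0.0037), Ccnb2 2.16-fold lower (log2 -1.11 ± 0.20, adjusted p = 0.00095) and Birc5 2.40-fold lower (log2 -1.26 ± 0.25, adjusted p = 0.0020). The smallest differences were those of Cenpm (log2 -0.31 ± 0.30, adjusted p = 0.50), Incenp (log2 -0.57 ± 0.23, adjusted p = 0.085) and the midzone protein Prc1 (log2 -0.65 ± 0.25, adjusted p = 0.072), none of which passed. Cdk1 also missed the threshold (log2 -1.01 ± 0.35, adjusted p = 0.053), with 258, 398 and 545 in CD4 and 385, 892 and 1145 in CD8 libraries, where the lowest CD8 library was below 2 of the 3 CD4 libraries. By role, 7 of 9 kinases and cyclins, 3 of 4 passenger complex subunits, 5 of 6 checkpoint and cohesion genes, 8 of 13 centromere and kinetochore genes, 6 of 9 kinesins, 5 of 8 spindle and cytokinesis genes, 5 of 5 chromosome structure genes and 3 of 3 anaphase genes were called lower in CD4 cells. The count rested on few libraries. It was 13 without CD4 Flica-negative replicate 2, 19 without its replicate 1, 22 and 19 without CD8 Flica-negative replicates 2 and 3, 27 with all 15 libraries in 1 fit, and 52 without CD8 Flica-negative replicate 1. Listed genes called lower in the same fits numbered 325, 366, 335, 347, 354 and 541, in place of 536. The members' median log2 difference stayed between -1.28 and -0.74 when libraries were left out. Neutrophil markers, 15 of 15 with a row, summed to between 2727 and 7832 normalized counts in CD4 and between 12072 and 18554 in CD8 Flica-negative libraries, and 12 of 15 were called lower in CD4 cells. Their part in the difference was not tested.

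In resting cells the lineages differed in few members, and 3 of 57 passed between CD4 and CD8 controls, 1 higher and 2 lower in CD4 cells, against backgrounds of 7.11% and 5.85% of 3952 listed genes. Racgap1, the GTPase-activating subunit of centralspindlin (ENSMUSG00000023015, chr15:99620496-99651656, GRCm38), was by far the largest. It had 222, 303 and 141 normalized counts in the CD4 controls and 2384, 2754 and 2572 in the CD8 controls, an 11.6-fold lower level in CD4 cells (log2 -3.53 ± 0.24, adjusted p = 1.8e-08). The resting CD8 libraries thus overlapped with the CD4 Flica-negative libraries of day 7, at 2582, 2002 and 2664, and per kilobase of exon it was their most abundant member at 363 ± 26.1 normalized counts (SD, n = 3). It made up most of the 35.7% ± 4.95 of the members' sum that spindle and cytokinesis genes took in CD8 controls, against 10.9% ± 1.15 in CD4 controls (SD, n = 3). No other annotated gene shares its exon bases and it has no named pseudogene. Kifc1, a kinesin that pulls spindle poles together, went the other way with 515, 371 and 495 in CD4 and 189, 79.7 and 197 in CD8 controls (log2 1.57 ± 0.30, adjusted p = 0.0014). Its CD4 controls overlapped with CD4 Flica-negative libraries, at 463, 511 and 807. Kif14 had 12.3, 19.3 and 12.5 in CD4 and 60.8, 68.95 and 39.4 in CD8 controls (log2 -1.93 ± 0.61, adjusted p = 0.045), and lost its call when any of 5 of the 6 libraries was left out. With the replicate number as a block 1 gene was called lower, Racgap1. Racgap1 and Kifc1 kept their calls in each of the 15 other settings run. However, Racgap1 was listed through CD4 cells alone and Kifc1 through CD8 cells alone. In each case that is the lineage with the lower control level, from which a large rise is more easily reached. The listing thus favoured these 2 differences between controls, and their values are a description. Prc1 and Cenpm were next to Kifc1 on the higher side (log2 0.92 ± 0.39, adjusted p = 0.17 and log2 0.60 ± 0.83, adjusted p = 0.78) and Cdc25c next to Kif14 on the lower (log2 -1.51 ± 1.39, adjusted p = 0.61).

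**Figure D3:**
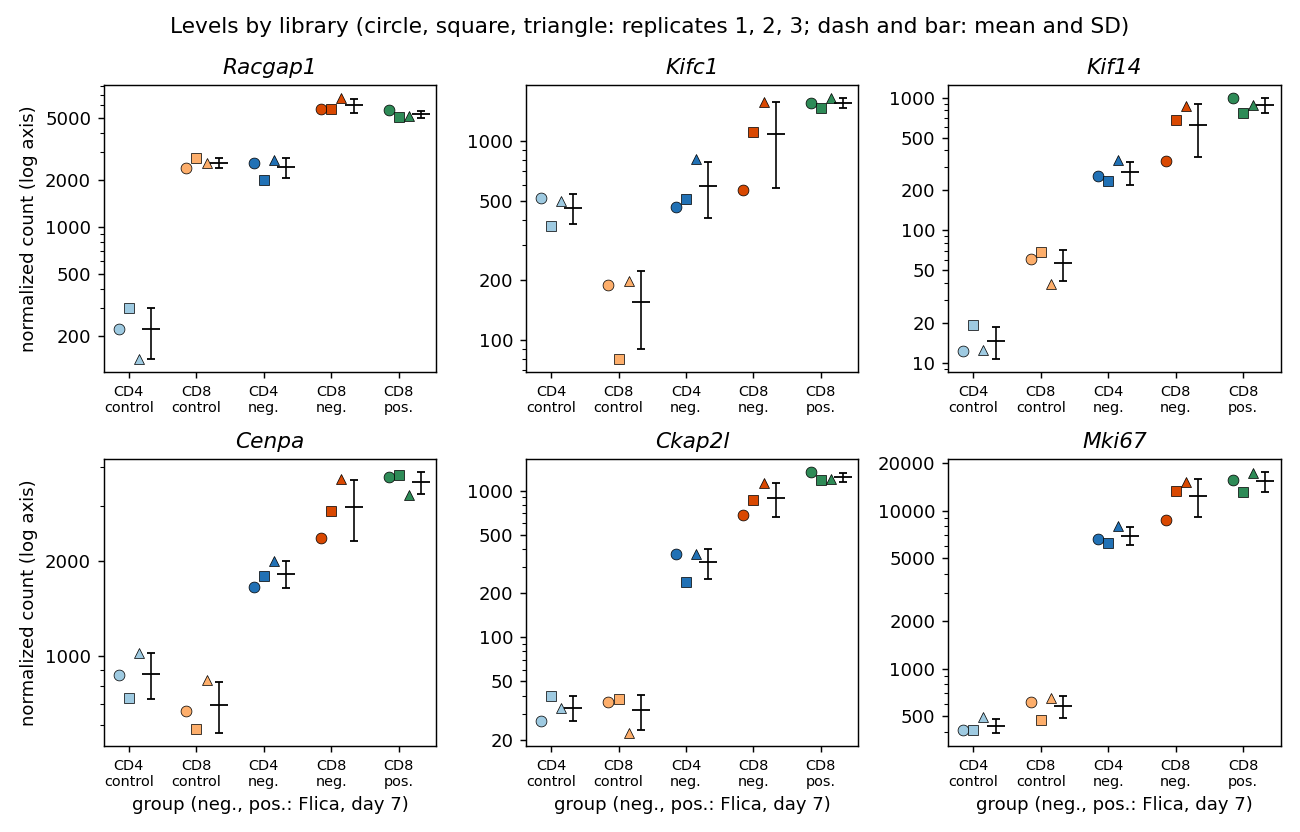
Normalized counts on log axes of Racgap1, Kifc1, Kif14, Cenpa, Ckap2l and Mki67 in the 5 groups, with circles, squares and triangles for replicates 1, 2 and 3 and a dash with bar for the mean and SD. Racgap1 lies between 2384 and 2754 in CD8 controls and between 141 and 303 in CD4 controls, while Mki67 lies between 409.8 and 654 in all controls.

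The change from day 0 to day 7 was then compared between lineages as the interaction of a fit over 12 libraries. It is built from the contrasts that decided the listing, so a gene listed through 1 lineage only was selected for a large change there. The median difference of the CD4 and CD8 log2 changes was -0.83 over the 57 genes and -0.12 over the 4530 listed genes tested. Single genes rarely passed: 1 of 57 had a larger rise in CD4 and 3 a larger rise in CD8 cells, against backgrounds of 5.7% and 4.66%. An unadjusted p below 0.05 was found for 20 members, beside 1176 of the 4530 listed genes. Racgap1 rose 10.9-fold in CD4 and 2.34-fold in CD8 Flica-negative cells (difference log2 2.22 ± 0.31, adjusted p = 0.00011). On day 7 it still was 2.49-fold lower in CD4 cells (log2 -1.31 ± 0.15, adjusted p = 3.2e-05), with CD8 Flica-negative libraries at 5660.2, 5661 and 6702. Kifc1 rose 6.93-fold in CD8 cells, from 189, 79.7 and 197 to 567, 1100.1 and 1556 normalized counts, and had a log2 change of 0.37 ± 0.26 in CD4 cells (difference log2 -2.42 ± 0.52, adjusted p = 0.0054). On day 7 the levels of Kifc1 missed the threshold between the lineages (log2 -0.86 ± 0.32, adjusted p = 0.066). Cenpa rose 4.28-fold in CD8 and 2.08-fold in CD4 cells (difference log2 -1.04 ± 0.29, adjusted p = 0.031), and Ckap2l 27.8-fold and 9.77-fold (difference log2 -1.51 ± 0.45, adjusted p = 0.040). Of these 4 genes only Ckap2l is in both Flica-negative tables: Racgap1 is in that for CD4 cells alone, and Kifc1 and Cenpa are in that for CD8 cells and not in that for CD4 cells. The 3 lowest values also include Spc24 and Aurkb, which missed the threshold (log2 -2.04 ± 0.95, adjusted p = 0.19 and log2 -1.75 ± 0.70, adjusted p = 0.13), and the 3 highest include Cdc25c and Kif14 (log2 0.79 ± 1.26, adjusted p = 0.77 and log2 0.75 ± 0.54, adjusted p = 0.40). When libraries were left out, between 1 and 9 members had a larger rise in CD8 cells, the latter without CD8 control replicate 1, while Racgap1 and Kifc1 passed each time.

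**Figure D4:**
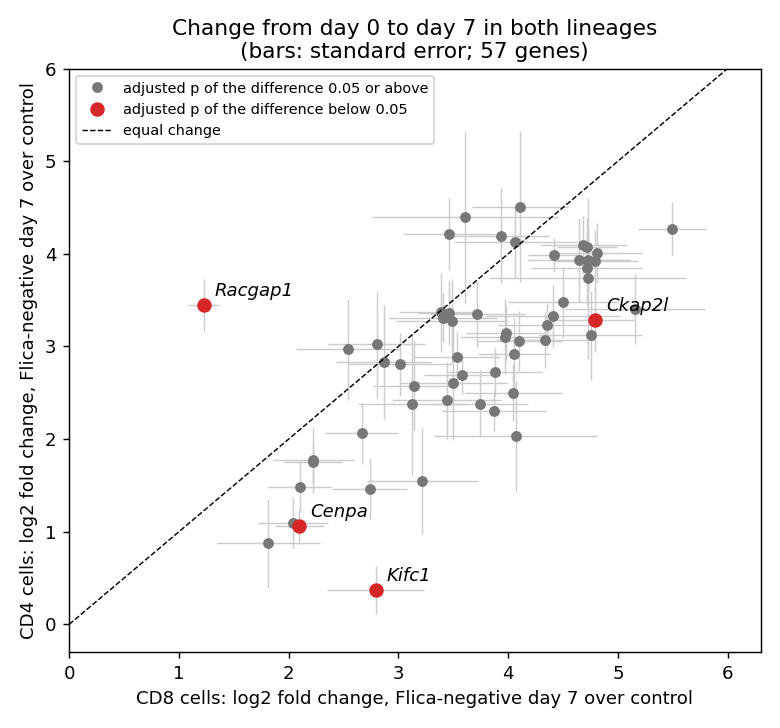
Log2 fold change of each of the 57 genes from control to Flica-negative day 7 cells in CD8 (x axis) and CD4 cells (y axis), with standard errors as bars and the line of equal change dashed. Racgap1 lies farthest above the line at 1.23 and 3.44, and Kifc1, Cenpa and Ckap2l are the marked genes below it.

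Within CD8 cells of day 7, Flica-positive libraries had somewhat more of 56 of the 57 members than Flica-negative libraries on the authors' scale. Of the 4286 listed genes 2621 went the same way. The median log2 difference was 0.64, a 1.56-fold difference, beside 0.45 over the 4286 listed genes tested. Of the 57 genes 9 were called higher and 0 lower, against backgrounds of 21.7% higher and 2.8% lower. An unadjusted p below 0.05 was found for 33 members, beside 1643 of the 4286 listed genes. DESeq2 called 19 members higher and 0 lower, beside 1127 and 193 listed genes. For 35 members the 3 Flica-positive libraries all lay above the 3 Flica-negative ones, against 31.9% of listed genes, and for 1, Racgap1, all below, against 14.2%. The largest differences were those of Cenph, with 98.01, 178 and 218 normalized counts in Flica-negative and 390.4, 377 and 536 in Flica-positive libraries (log2 1.39 ± 0.36, adjusted p = 0.015), and of Anln, with 202, 388 and 494 and 801, 808 and 1119 (log2 1.33 ± 0.33, adjusted p = 0.013). Spc25 followed (log2 1.05 ± 0.33, adjusted p = 0.041). Among the kinases and cyclins Plk1 (log2 1.01 ± 0.30, adjusted p = 0.032), Aurka (log2 1.00 ± 0.31, adjusted p = 0.038) and Ccnb1 (log2 0.91 ± 0.26, adjusted p = 0.027) were called higher. The other calls were Cdca5 (log2 0.90 ± 0.27, adjusted p = 0.034), Kif2c, a microtubule depolymerase (log2 0.99 ± 0.30, adjusted p = 0.035), and Ube2c (log2 0.64 ± 0.21, adjusted p = 0.046). Mki67 (log2 0.31 ± 0.23, adjusted p = 0.36) and Top2a (log2 0.53 ± 0.28, adjusted p = 0.19) were not called. The smallest values were those of Racgap1 (log2 -0.19 ± 0.18, adjusted p = 0.47), Cenpp (log2 0.02 ± 0.48, adjusted p = 0.98) and Cenpf (log2 0.21 ± 0.29, adjusted p = 0.63).

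The direction of this comparison turned with the scaling. With TMM or median-of-ratios factors from the listed genes, the median fell to 0.11 and 0.10, 0 members were called higher and 1, Racgap1, was called lower. These scalings moved the median of all listed genes by -0.56 and -0.57. Scaled to total counts on listed genes other than mitochondrially encoded ones, the median was -0.67, and 0 members were called higher and 16 lower, Mki67 and Ccnb2 among them. Of the 4286 listed genes 532 were called higher and 1127 lower with that scaling, and their median was -0.85. Leaving out single libraries gave 0 calls without Flica-negative replicate 2, 2 without its replicate 1 and 28 without its replicate 3, and 2, 2 and 4 without Flica-positive replicates 1, 2 and 3. Listed genes called higher in the same fits numbered 662, 749 and 821, and 839, 741 and 902. With the replicate number as a block 35 members were called higher, beside 1011 of the 4286 listed genes. By the rule used the numbers pair these libraries over genes whose mean reached 100 normalized counts but not over those whose mean reached 10. The Flica-positive libraries also held far more transcript of other blood cells. Neutrophil markers, 15 of 15 with a row and none at 0, summed to between 203253 and 390857 normalized counts against 12072 to 18554 in Flica-negative libraries, and all 15 were called higher. Macrophage markers, 9 of 13 with a row, summed to 17639.8 to 37227 against 876 to 2061, and blood progenitor markers, 7 of 8 with a row, to 2611 to 4434 against 168 to 239. Of these, 8 of 9 and 4 of 7 were called higher. Most of each sum in Flica-positive libraries was 1 gene, Lyz2 at 26217 ± 10046 for macrophages and Spi1 at 2543 ± 1033 for progenitors (SD, n = 3). Erythroid markers, 7 of 13 with a row, ranged from 1567 to 111131 against 297 to 3610.5. Cd8a was at 9348 to 11492 in Flica-positive and at 12817 to 14967 in Flica-negative libraries (log2 -0.37 ± 0.18, adjusted p = 0.15). The part of these transcripts in the members' values was not tested.

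**Figure D5:**
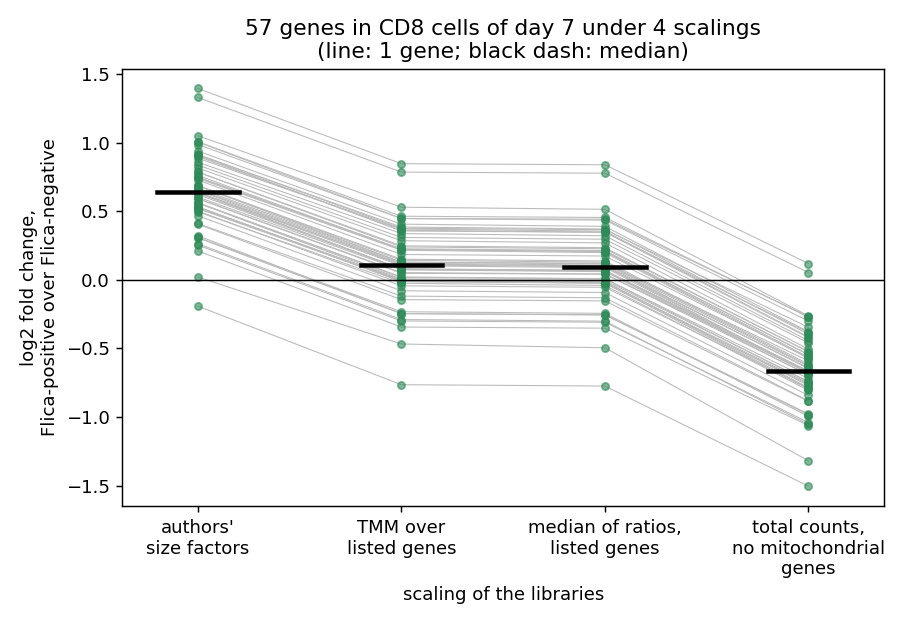
Log2 fold change of each of the 57 genes (points joined by thin lines) from Flica-negative to Flica-positive CD8 cells, under 4 scalings of the libraries, with the median as a black dash. The median falls from 0.64 with the authors' size factors to 0.11, 0.10 and -0.67. A change of scaling moves all genes by nearly the same amount, so their order is bound to change little.

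Further cell cycle genes were read from other lists. Of 84 further mitosis genes, 53 had a row, and 52, 52 and 53 were called higher in CD8 Flica-negative, CD4 Flica-negative and CD8 Flica-positive cells against control (38.8%, 33% and 47.2% of listed genes), contrasts that decided their listing too. Between CD4 and CD8 Flica-negative cells, 31 of the 53 were called lower in CD4 cells, against 12.6% of listed genes. Between Flica-positive and Flica-negative cells 2 were called higher, a share below the 21.7% of listed genes. Between controls 2 of the 53 were called lower and 0 higher in CD4 cells, a share below the 5.85% and 7.11% of listed genes. They are Shcbp1, a partner of centralspindlin, with 1.07 ± 1.12 normalized counts in CD4 and 24.6 ± 14.9 in CD8 controls (SD, n = 3, adjusted p = 0.042 by edgeR), and Depdc1b, with 13.4 ± 7.97 and 160.0 ± 31.3 (log2 -3.59 ± 0.47, adjusted p = 3.6e-05). Of 14 transcription factors that act on late cell cycle genes, 7 had a row. All 7 were called higher against control in each day 7 group, beside the same 38.8%, 33% and 47.2% of listed genes. The contrasts with control took part in listing these factors and the other genes below, so their changes from control are a description. Between CD4 and CD8 Flica-negative cells 6 of the 7 factors were called lower in CD4 cells, against 12.6% of listed genes. Foxm1, a factor of mitotic genes, was at 128 ± 62.03 and 185 ± 36.2 normalized counts in CD4 and CD8 controls and at 749 ± 215, 1480.0 ± 464 and 1946 ± 344 in CD4 Flica-negative, CD8 Flica-negative and CD8 Flica-positive cells (SD, n = 3). E2f2 was higher in CD4 than CD8 controls (log2 0.92 ± 0.20, adjusted p = 0.0040) and rose less in CD4 cells (log2 -1.37 ± 0.26, adjusted p = 0.0022 for the difference). Of 9 G1 cyclins and kinases 3 had a row, of which Cdk6 and Ccne2 rose and Ccnd2 fell, in CD8 Flica-negative cells from 8175 ± 1439 to 2121 ± 183 normalized counts (SD, n = 3, log2 -1.95 ± 0.17, adjusted p = 5.1e-06). Of 17 inhibitors of cell cycle kinases and quiescence genes 5 had a row. Cdkn1a, the inhibitor p21, rose in CD4 (log2 5.28 ± 0.40, adjusted p = 7.1e-07) and CD8 Flica-negative cells (log2 5.17 ± 0.65, adjusted p = 7.0e-05) and was higher in CD4 than in CD8 Flica-negative cells (log2 1.11 ± 0.25, adjusted p = 0.0055), opposite to the mitotic genes. Foxo1, a factor of quiescence, fell in both lineages.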

How the data were processed

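RNA of 15 sorted T cell libraries was sequenced. Per the labels' processing notes the authors used STAR 2.7.1a, DESeq2 and the mouse build GRCm38. The counting tool, the gene annotation and whether strand was used are not given in the sources used here. The deposited tables hold raw counts per gene for genes past the authors' own thresholds only, with their fold changes and p-values, and the base mean, a signal per gene that the authors averaged over the libraries after dividing by size factors. The authors' comparison columns (fold changes and p-values) and their enrichment tables were not used. The size factor of each library was solved from the counts and the base mean, and normalized counts are counts divided by it.

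Genes with at least 10 counts summed over the libraries compared were tested with edgeR 4.0.16 (quasi-likelihood test, R 4.3.3, authors' size factors, 2-sided, Benjamini-Hochberg over all listed genes tested, called at adjusted p below 0.05). Standard errors are the log2 fold change divided by the square root of the F statistic. Each comparison used the 6 libraries of its groups, and the interaction 12. The script was checked on simulated counts for CD8 Flica-positive against Flica-negative cells (4286 genes), where it called 24 of 100 genes changed 2-fold and 83 of 100 changed 4-fold. Alternatives were DESeq2 1.42.0, other scalings, filters and thresholds, all 15 libraries in 1 fit, single libraries left out, and the replicate number as a block. One scaling, by total counts on listed genes other than mitochondrially encoded ones, was chosen after seeing the data.

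The labels number the replicates but do not say that a number marks a shared sort. The correlations of deviations from group means for replicates 1, 2 and 3 were 0.162, 0.0362 and 0.0943 between CD8 Flica-positive and Flica-negative libraries over genes whose mean reached 10 normalized counts, and 0.301, 0.135 and 0.22 over those whose mean reached 100. Between CD4 and CD8 controls they were 0.113, 0.0376 and 0.0469, and 0.334, 0.138 and 0.182. Every pair passed the pairing rule, a correlation over 0.1, only at the higher minimum. Between CD4 and CD8 Flica-negative libraries replicate 2 did not pass at either.

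Named genes were Mki67, Top2a, Cdk1, Ccna2, Ccnb1, Ccnb2, Plk1, Aurka, Aurkb, Birc5, Bub1b, Cenpa, Cenpf, Ndc80, Kif11, Kif20a, Cdc20 and Ube2c, with the 3 highest and 3 lowest members of each comparison and the members called in comparisons with few calls; others complete a role and were named after their values were seen. The members and lists were chosen with earlier results of these data known. Exon overlaps came from GENCODE M21, which held all 57 genes, and promoters from RefSeq for GRCm38.p6. For 8 members no promoter was used here.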

Additional observations from a re-analysis of the deposited data

Results flagged for a closer look

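Whether the change from control to Flica-negative day 7 cells differed between CD4 and CD8 cells was tested as an interaction, and 4 of the 57 mitotic genes passed. Of all listed genes 5.7% passed with a larger rise in CD4 and 4.66% with a larger rise in CD8 cells, so the members passed no more often than the rest. The interaction is built from the contrasts that decided the listing: Racgap1 is listed for CD4 Flica-negative cells alone, Kifc1 and Cenpa for CD8 and not for CD4 Flica-negative cells, and only Ckap2l for both. The values are therefore a description. Racgap1 rose more in CD4 cells, with a difference of the log2 changes of 2.22 (adjusted p = 1.1e-04 by edgeR), against a resting level that was higher in CD8 cells. Kifc1 rose more in CD8 cells, with a difference of -2.42 (adjusted p = 0.0054), as did Cenpa with -1.04 (adjusted p = 0.031) and Ckap2l with -1.51 (adjusted p = 0.040). Racgap1 and Kifc1 passed in all 21 alternatives run, with highest adjusted p-values of 0.0043 and 0.022. Cenpa missed the threshold in 10 and Ckap2l in 11 of the 21.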

How the results depend on the processing

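Of the 57 members, all were called higher against control in CD8 Flica-negative cells under every alternative run, and between 52 and 55 in CD4 Flica-negative cells. Listed genes called higher ranged from 1346 to 1767 and from 1109 to 1488. The contrasts with control decided the listing, so these calls repeat it and nothing is read from them. In CD8 Flica-positive cells against control the members' median log2 fold change of 4.55 became 2.87 with TMM, 2.69 with median-of-ratios and 2.93 with total-count scaling, with 54, 52 and 54 members called higher in place of 57, where Racgap1 turned to -0.61, -0.84 and -0.61 and 1 member, Racgap1, was called lower with the latter 2 scalings.

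Between CD8 Flica-positive and Flica-negative cells, the 9 members called higher became 0 with TMM, median-of-ratios or total-count scaling and at an adjusted p below 0.01, 4 with all 15 libraries in 1 fit and 19 with DESeq2. Listed genes called higher numbered 721, 722, 532, 610, 933 and 1127 in the same order, in place of 929. The members called lower went from 0 to 1 with TMM and with median-of-ratios and 16 with total counts, and leaving out 1 library gave 0 to 28 higher. Listed genes called lower went from 120 to 447, 476 and 1127 with these scalings. Leaving out 1 library gave 662 to 902 listed genes called higher. With total counts, the median was -0.67. For 21 members called with the authors' or the total-count scaling the value turned from positive to negative, to -0.38 (Ccnb1), -0.98 (Ccnb2), -0.27 (Plk1), -0.27 (Aurka), -0.89 (Incenp), -0.42 (Cdca5), -1.05 (Cenpa), -1.04 (Cenpe), -1.06 (Cenpf), -1.32 (Cenpp), -0.26 (Spc25), -0.76 (Kif15), -0.30 (Kif2c), -0.996 (Kif4), -0.75 (Tpx2), -0.84 (Ckap2l), -0.98 (Mki67), -0.75 (Top2a), -0.80 (Ncapg), -0.74 (Cdc20) and -0.67 (Ube2c). Members called with neither scaling are left out here, although values such as that of Ccna2 turned as well. The scaling itself moved all values, as the median of all listed genes shifted by -1.30. The tables hold only genes past the authors' thresholds, and factors from them differ from factors over all genes.

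Between CD4 and CD8 Flica-negative cells, the 42 members called lower were 27 with all 15 libraries in 1 fit, 19 at an adjusted p below 0.01, and 13 to 52 with 1 library left out. Listed genes called lower were 354, 280 and 325 to 551 in the same settings, in place of 536. Between controls the 2 members called lower became 1 without a filter, with the replicate block and at an adjusted p below 0.01, and 1 to 3 with 1 library left out. In the interaction the 3 members with a larger rise in CD8 cells became 1 with TMM and at an adjusted p below 0.01, 6 with median-of-ratios and 6 with DESeq2, and 1 to 9 with 1 library left out. The cause of these moves was not tested.

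With the replicate number as a block, 35 members in place of 9 were called higher between Flica-positive and Flica-negative cells, 55 in place of 42 lower between CD4 and CD8 Flica-negative cells, and 54 in place of 55 higher in CD4 Flica-negative cells against control. Listed genes called in these directions were 1011 in place of 929, 727 in place of 536 and 1233 in place of 1439. The block left the counts at 57 and 57 in both CD8 comparisons with control and at 1 and 3 in the interaction. The depth of the tables limits folds against resting cells, where many members had few reads.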
